A study of Mus musculus with 9 samples.

Results

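The genes described here are 10 genes of the endothelium, the cell layer that lines blood vessels. They were picked by name from 18820 measured genes: the tight junction genes Cldn5 and Ocln, the adherens and lateral junction genes Cdh5 and Pecam1, the surface genes Podxl, Adgrl4, Adgrf5 and Tm4sf1, and the leukocyte docking genes Icam1 and Vcam1. Each was read by 1 probe set assigned to a single gene on an Affymetrix mouse gene array. The names were drawn up with results of these arrays known, above all the difference between surgery and control. Differences between surgery and control, and between all operated mice and control, are therefore descriptions: no p-value is given for a gene there, and a count of genes past a threshold is read as no evidence. Maresin 1 against control uses the same control arrays, so counts of the 10 genes there are no independent evidence either.

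The 9 arrays came from hippocampi of C57BL/6 mice of 12 to 14 weeks, with 6 µg of total RNA per array. A group of 3 mice had Maresin 1 before a tibia fracture, a group of 3 had the tibia fracture alone, and 3 were control mice. Maresin 1 is a pro-resolving lipid that macrophages derive from an omega-3 fatty acid. Operated mice were sampled 72 h after surgery. The sources used here do not give the dose of Maresin 1. Arrays of a group are titled as biological replicates.

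Brain endothelium forms the blood-brain barrier. Claudin-5 and occludin seal the tight junctions between neighbouring cells, VE-cadherin and PECAM-1 hold the cells together, and ICAM-1 and VCAM-1 on the vessel surface bind integrins of white blood cells before these leave the blood. In inflammation, cytokines raise ICAM-1 and VCAM-1 through the transcription factor NF-kB, while endothelial identity genes are driven largely by transcription factors of the ETS family.

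Promoter windows from the RefSeq table (build GRCm38.p6) were at hand for Cldn5, Ocln, Adgrl4, Adgrf5, Tm4sf1 and Icam1. Those of Icam1, Tm4sf1, Adgrf5 and Cldn5 are printed so that a docking gene, surface genes and a tight junction gene can be set side by side. Each runs from 250 bases before to 50 bases after the annotated start of the gene, 5′ to 3′ on its own strand. Capitals mark matches, on either strand, to a short NF-kB motif (GGNNNTTCC), an ETS motif (CNGGAAG) or the TATA box (TATAAA).
Icam1, chr9:21015690-21015989, plus strand: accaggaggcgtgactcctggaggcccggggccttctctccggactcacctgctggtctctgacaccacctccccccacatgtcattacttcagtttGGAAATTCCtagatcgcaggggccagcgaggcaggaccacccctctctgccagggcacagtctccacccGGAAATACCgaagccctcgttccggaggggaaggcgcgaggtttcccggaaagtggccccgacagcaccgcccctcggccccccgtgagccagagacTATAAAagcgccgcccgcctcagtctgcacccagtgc
Tm4sf1, chr3:57301939-57302238, minus strand: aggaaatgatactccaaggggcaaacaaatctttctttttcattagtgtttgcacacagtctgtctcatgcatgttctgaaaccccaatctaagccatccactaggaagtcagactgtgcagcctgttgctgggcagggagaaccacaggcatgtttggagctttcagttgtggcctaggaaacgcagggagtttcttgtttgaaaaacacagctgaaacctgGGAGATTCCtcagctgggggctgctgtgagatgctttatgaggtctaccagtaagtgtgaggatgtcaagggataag
Adgrf5, chr17:43360181-43360480, plus strand, the first of 2 annotated starts: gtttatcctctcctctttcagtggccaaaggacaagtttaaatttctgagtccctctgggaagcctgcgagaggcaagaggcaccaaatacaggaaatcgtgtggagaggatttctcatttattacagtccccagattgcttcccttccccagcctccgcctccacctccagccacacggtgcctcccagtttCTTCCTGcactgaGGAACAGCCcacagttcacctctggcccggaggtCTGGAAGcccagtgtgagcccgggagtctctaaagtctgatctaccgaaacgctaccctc
Cldn5, chr16:18776597-18776896, plus strand: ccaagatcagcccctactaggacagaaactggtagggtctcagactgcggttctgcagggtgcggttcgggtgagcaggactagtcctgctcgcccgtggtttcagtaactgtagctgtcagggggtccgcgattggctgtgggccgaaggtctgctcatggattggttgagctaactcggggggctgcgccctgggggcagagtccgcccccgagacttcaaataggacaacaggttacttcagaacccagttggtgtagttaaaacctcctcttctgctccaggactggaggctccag

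The Icam1 window held the NF-kB letters at 2 places, at positions -153 to -145 and -84 to -76 counted from the start site, of which the first matches on both strands. It also held TATAAA at positions 13 to 18, after the annotated start. Tm4sf1 held 1 NF-kB match, at -27 to -19. Adgrf5 held 1 NF-kB match at -44 to -36 and 2 ETS matches, at -57 to -51 and -10 to -4. The Adgrl4 window began with 1 ETS match, and the windows of Cldn5 and Ocln held none of the 3 motifs. Of 32851 promoter windows in the table, 18.5% held the NF-kB letters, 31.9% the ETS letters and 13.6% TATAAA. The matches describe letters and not binding sites.

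Levels are log2 values of the signal after all arrays were brought to one distribution and 16 was added. A level is compared between arrays for one gene and never between genes, since each probe set has its own brightness. Background was gauged from 990 olfactory receptor genes, whose 95th percentile was 5.86. All members but Icam1 lay above it in 9 of 9 arrays, and Icam1 in 4 of 9. All 9 measured neuron markers also lay above it on average, among them Snap25 and Camk2a.

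Control replicates 2 and 3 stood apart in transcripts of the choroid plexus, the tissue that secretes cerebrospinal fluid. All 14 measured choroid plexus markers were higher in these 2 arrays than in any of the other 7. Their mean log2 deviation from the 9-array mean lay between -0.67 and -0.56 in Maresin 1 mice and between -0.81 and -0.66 in mice with surgery alone. In the control arrays it was -0.88 for replicate 1, 2.37 for replicate 2 and 2.65 for replicate 3. The choroid plexus also expresses some of the genes described here, such as Ocln and Vcam1, so for the 10 genes each difference from control is also given against control replicate 1 alone, the control with low choroid plexus transcripts. Genes of other lists have no such value here.

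Of the 4 surface genes, Podxl, Adgrl4 and Adgrf5 were higher in all 6 operated mice than in all 3 controls, and Tm4sf1 overlapped. Adgrl4, an adhesion G protein-coupled receptor of growing vessels, stood at 8.84, 8.61 and 8.82 in Maresin 1 mice, 8.78, 9.05 and 8.96 after surgery alone, and 8.53, 8.37 and 8.12 in control mice. Every operated mouse lay above every control, while the operated groups overlapped. The difference was 0.59 (SE 0.11) between surgery and control, a fold of 1.5, and 0.41 between Maresin 1 and control (SE 0.11, limma adjusted p = 0.166 over all genes). Against control replicate 1 alone, the differences were 0.40 for surgery and 0.22 for Maresin 1.

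Podxl encodes podocalyxin, a negatively charged sialomucin of the luminal surface. Its levels were 8.88, 8.54 and 8.77 in Maresin 1 mice, 8.66, 9.03 and 8.92 after surgery, and 8.41, 8.34 and 8.47 in control mice. Again no operated array reached down to a control array. Surgery exceeded control by 0.46 (SE 0.10), a fold of 1.38, and Maresin 1 exceeded control by 0.32 (SE 0.10, limma adjusted p = 0.239). Control replicate 1 alone gave 0.46 and 0.32.

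Adgrf5, a second adhesion G protein-coupled receptor that endothelium shares with lung epithelium, was at 8.89, 8.52 and 8.79 in Maresin 1 mice. It was at 8.65, 8.73 and 8.83 after surgery and at 8.44, 8.26 and 8.26 in control mice. The surgery arrays lay within the range of the Maresin 1 arrays, and both groups lay above control. The difference from control was 0.41 in each comparison (SE 0.10 in both), a fold of 1.33, with limma adjusted p = 0.125 for Maresin 1. Both were 0.29 against control replicate 1 alone.

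Tm4sf1, a tetraspanin-like surface protein of endothelial protrusions, was at 9.41, 9.42 and 9.55 in Maresin 1 mice, 9.21, 9.43 and 9.09 after surgery, and 8.55, 8.93 and 9.11 in control mice. The Maresin 1 group lay above control without overlap, by 0.59 (SE 0.12, fold 1.51), the smallest adjusted p of the 10 genes in that comparison (limma adjusted p = 0.0892). It did not pass the threshold of 0.05. Surgery alone overlapped control and differed by 0.38 (SE 0.12, fold 1.30), and by 0.23 without control replicate 1. Against that control alone, the differences were 0.69 for surgery and 0.90 for Maresin 1.

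**Figure D1:**
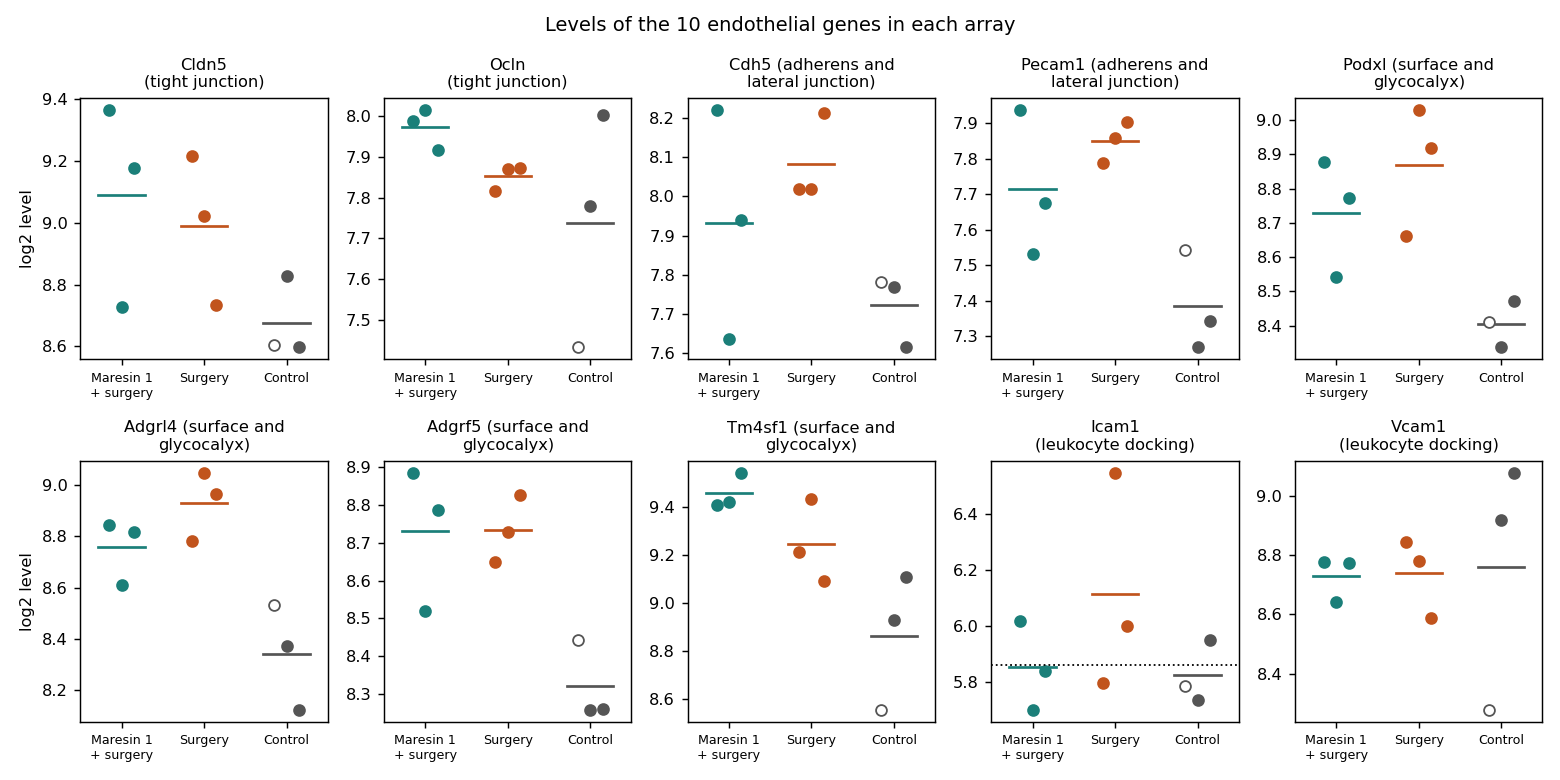
Levels of the 10 genes (log2 scale, y axis, a separate range per gene) in each array, by group; bars are group means of 3 arrays, the open circle is control replicate 1, and the dotted line for Icam1 is the olfactory receptor level of 5.86. Podxl, Adgrl4 and Adgrf5 lie higher in all 6 operated mice than in all 3 controls, while Icam1 and Vcam1 overlap.

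Of the junction genes, those of the adherens and lateral contacts were higher after surgery alone. Pecam1, a homophilic adhesion molecule of endothelial borders, had levels of 7.94, 7.53 and 7.68 in Maresin 1 mice, 7.79, 7.86 and 7.90 after surgery, and 7.54, 7.27 and 7.34 in control mice. Surgery and control did not overlap, whereas Maresin 1 replicate 2 lay just under control replicate 1. The difference was 0.46 (SE 0.11, fold 1.38) for surgery and 0.33 (SE 0.11, limma adjusted p = 0.252) for Maresin 1, each against control. Against control replicate 1 alone, they were 0.31 and 0.17. Without Maresin 1 replicate 1, the Maresin 1 difference was 0.22.

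Cdh5, the VE-cadherin of adherens junctions, was at 8.22, 7.64 and 7.94 in Maresin 1 mice, 8.02, 8.02 and 8.21 after surgery, and 7.78, 7.77 and 7.62 in control mice. Surgery lay above control in each array, and the Maresin 1 arrays were spread over nearly the whole range of both. Surgery differed from control by 0.36 (SE 0.12, fold 1.28) and Maresin 1 from control by 0.21 (SE 0.12, limma adjusted p = 0.567). The Maresin 1 difference was 0.07 without Maresin 1 replicate 1 and 0.36 without Maresin 1 replicate 2. Control replicate 1 alone gave 0.30 for surgery and 0.15 for Maresin 1.

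The tight junction genes overlapped between operated and control mice. Cldn5, the main claudin of brain vessels, stood at 9.37, 8.73 and 9.18 in Maresin 1 mice, 9.22, 9.02 and 8.73 after surgery, and 8.61, 8.83 and 8.60 in control mice. The lowest array of each operated group lay within the control range. The difference was 0.31 (SE 0.15, fold 1.24) for surgery and 0.41 (SE 0.15, limma adjusted p = 0.291) for Maresin 1 against control. The surgery difference was 0.20 without surgery replicate 1. Against control replicate 1 alone, the differences were 0.38 and 0.48.

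Ocln, which encodes the tight junction protein occludin, was at 7.99, 8.02 and 7.92 in Maresin 1 mice, 7.82, 7.87 and 7.87 after surgery, and 7.43, 7.78 and 8.004 in control mice. Operated mice were tightly grouped and controls were not. Surgery differed from control by 0.11 (SE 0.12) and Maresin 1 by 0.24 (SE 0.12, limma adjusted p = 0.474). Without control replicate 1 these were -0.04 and 0.08, without control replicate 3 they were 0.25 and 0.37, and against control replicate 1 alone they were 0.42 and 0.54.

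The docking genes gave no separation. Icam1, the ligand of leukocyte integrins with the beta 2 chain, was at 6.02, 5.70 and 5.84 in Maresin 1 mice, 5.80, 6.55 and 6.00 after surgery, and 5.79, 5.74 and 5.95 in control mice. Only surgery replicate 2 stood clearly above the rest, at a gene level near the olfactory receptor guide. Surgery differed from control by 0.29 (SE 0.16), and by 0.07 without surgery replicate 2. Without that array, Maresin 1 differed from surgery by -0.05. Maresin 1 differed from control by 0.03 (SE 0.16, limma adjusted p = 0.971). Without surgery replicate 1, surgery differed from control by 0.45 and Maresin 1 from surgery by -0.42. Control replicate 1 alone gave 0.33 for surgery and 0.07 for Maresin 1. Surgery replicate 2 also had the highest mean deviation of the 9 measured red cell and neutrophil markers, 0.23 against 0.03 and 0.02 in the other surgery arrays. Of those 9 markers only Alas2, of red cell haem synthesis, lay above the olfactory receptor level on average, and their part in the Icam1 value was not tested.

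Vcam1, the ligand of the integrin pair of alpha 4 and beta 1 chains, was at 8.78, 8.64 and 8.77 in Maresin 1 mice and 8.84, 8.78 and 8.59 after surgery. In control mice it was at 8.28, 8.92 and 9.08, a span wider than both operated groups together. The differences from control were -0.02 (SE 0.16) for surgery and -0.03 (SE 0.16, limma adjusted p = 0.970) for Maresin 1. Against control replicate 1 alone, they were 0.46 and 0.45.

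Over all 10 genes, the median difference between surgery and control was 0.37, against 0.02 for all 18820 genes. With surgery 9 of the 10 were higher than in control. For Cdh5, Pecam1, Podxl, Adgrl4 and Adgrf5, 5 of the 10, no surgery array came down to a control array, where 7.71% of all genes were higher without overlap. These values belong to the comparison the genes were picked from, so nothing is read from that count. limma called 0 of 18820 genes here, 0% at an adjusted p under 0.05, with 1168 genes at an unadjusted p under 0.05.

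Maresin 1 mice were next set against control mice. The median over the 10 genes was 0.33, against -0.00 for all genes, and 9 of 10 were higher. Groups did not overlap for Podxl, Adgrl4, Adgrf5 and Tm4sf1, 4 of 10, where 7.61% of all genes were higher without overlap. None of the 10 passed an adjusted p under 0.05 (limma), as 16 of all genes or 0.085% did, and 6 of the 10 had an unadjusted p under 0.05, as 2160 of all genes did. This comparison shares its control arrays with that of surgery and control, from which the genes were picked. The counts are therefore no independent evidence.

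With the 6 operated mice set together against the 3 controls, Adgrl4 differed by 0.50 (SE 0.09), Tm4sf1 by 0.49 (SE 0.11), Adgrf5 by 0.41 (SE 0.08), Pecam1 by 0.40 and Podxl by 0.39 (SE 0.09 each). Groups did not overlap for 3 of 10 genes, Podxl, Adgrl4 and Adgrf5, where 2.96% of all genes were higher without overlap. limma called 1 gene of 18820, 0.00531%, and it was none of the 10.

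Control replicate 1 alone lay below every surgery array for 10 of 10 genes, where 36.6% of all genes were higher after surgery in this way. With Maresin 1 the count was 7 of 10, against 29.5% of all genes, and with the 6 operated mice together 7 of 10, against 21.1%. Ocln, Vcam1 and Tm4sf1, whose differences grew against it, had their lowest level of all 9 arrays in that control and lay higher in the 2 controls with high choroid plexus transcripts. For Pecam1, Cdh5, Adgrl4 and Adgrf5 the differences were smaller against it than against all 3 controls. With this 1 control, and its spread assumed to be that of the other groups, Tm4sf1 passed the threshold in Maresin 1 against control (limma adjusted p = 0.0292), where 0.0213% of all genes did. No other of the 10 genes passed with Maresin 1 against that control. The part of choroid plexus tissue in the control levels of Ocln, Vcam1 and Tm4sf1 was not tested.

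Without control replicate 1, the 2 controls left are those with high choroid plexus transcripts. Then Adgrl4, Adgrf5 and Tm4sf1 had a limma adjusted p under 0.05 for Maresin 1 against control, 3 of the 10 where 1.3% of all genes did. Their differences were 0.51, 0.47 and 0.44. This comparison uses the same control arrays as the one the genes were picked from, so that count is no independent evidence. In the comparisons the genes were picked from, the count past that threshold was also 3 of 10, where 0.898% of all genes passed for surgery and 1.34% for the operated mice together, and nothing is read from it. The surgery difference in that setting was 0.68 for Adgrl4, 0.54 for Pecam1 and 0.47 for Adgrf5.

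**Figure D2:**
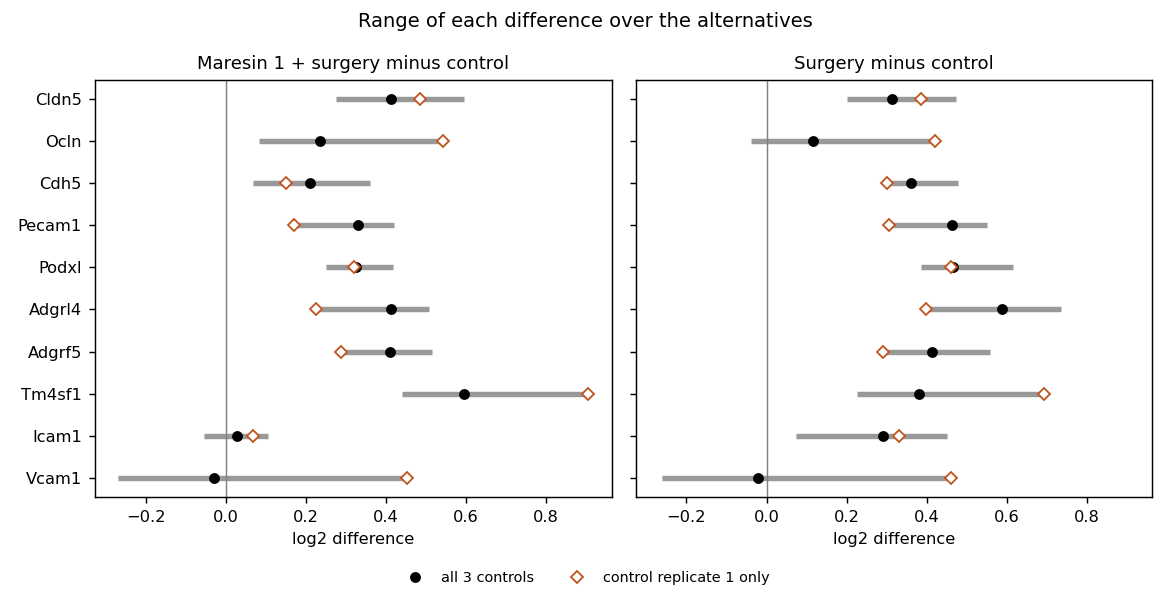
For Maresin 1 with surgery (left) and surgery (right), each minus control, the log2 difference (x axis) of each gene with all 3 controls (black point), with control replicate 1 as the only control (open diamond), and the range over 21 alternative settings (grey bar). Ocln, Tm4sf1 and Vcam1 move up most when control replicate 1 stands alone, to 0.42, 0.69 and 0.46 after surgery.

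The effect of the treatment within operated mice is the difference between Maresin 1 and surgery alone. The 7 genes that stood lower with Maresin 1 were Icam1 at -0.26 (SE 0.16, limma adjusted p = 0.872), Adgrl4 at -0.17 (SE 0.11, limma adjusted p = 0.864), Cdh5 at -0.15, Podxl at -0.14, Pecam1 at -0.13, Vcam1 at -0.01 and Adgrf5 at -0.00. The 3 that stood higher were Tm4sf1 at 0.21 (SE 0.12, limma adjusted p = 0.859), Ocln at 0.12 (SE 0.12) and Cldn5 at 0.10 (SE 0.15). Standard errors ran from 0.10 to 0.16 over the 10 genes, and a p that misses the threshold does not show that the groups were alike.

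None of the 10 passed in this comparison, and none of the 18820 genes did (0%), while 1065 had an unadjusted p under 0.05. Of these, 697 were lower with Maresin 1 and 368 higher, and the median over all genes was -0.02. Ocln was the single gene of the 10 whose groups did not overlap, with 7.92 the lowest Maresin 1 value and 7.87 the highest surgery value, where 4.79% of all genes were higher without overlap. Both genes of the tight junction pair were higher with Maresin 1 and both of the adherens and lateral pair were lower, with no unadjusted p under 0.05 for any of them. Unadjusted p was 0.516 for Cldn5, 0.318 for Ocln, 0.246 for Cdh5 and 0.233 for Pecam1 in the limma fit. The wider lists of these classes did not split in this way. Of 19 other tight junction genes measured, 8 were higher and 11 lower with Maresin 1 than with surgery alone, with a median of -0.02. Of 18 other adherens and lateral junction genes, 8 were higher and 10 lower, with a median of -0.005.

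**Figure D3:**
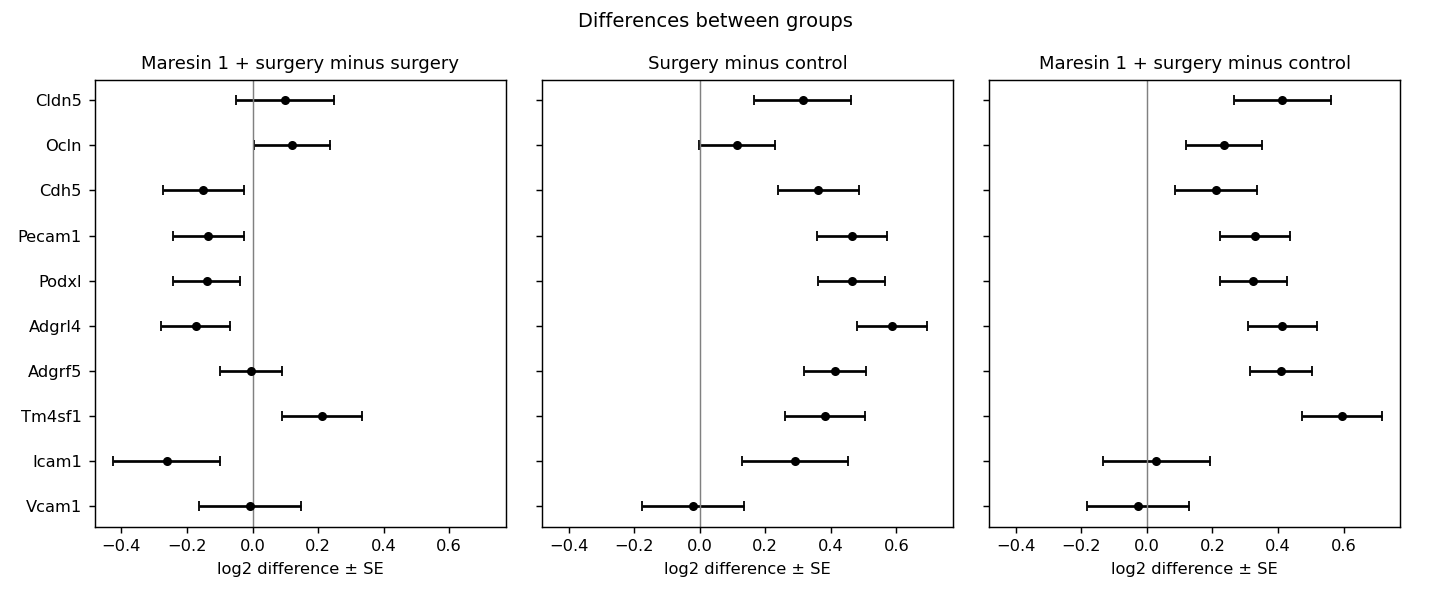
Log2 differences (x axis) with their standard errors for the 10 genes in the 3 comparisons, from the limma fit over 9 arrays. In surgery minus control and Maresin 1 minus control, 9 of 10 points lie above 0; in Maresin 1 minus surgery they lie between -0.26 and 0.21.

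Maresin 1 replicate 2 was the lowest array of its group for 8 of the 10 genes, and Maresin 1 replicate 1 the highest for the same 8 (Cldn5, Cdh5, Pecam1, Podxl, Adgrl4, Adgrf5, Icam1 and Vcam1). The mean deviation of the 10 genes was 0.22, -0.08 and 0.11 in the Maresin 1 arrays, 0.06, 0.22 and 0.10 after surgery, and -0.28, -0.19 and -0.16 in control mice. Surgery and Maresin 1 arrays overlapped, and control arrays lay below both. Maresin 1 replicate 2 was also lowest of its group for the other endothelial markers, at -0.08 against 0.17 and 0.06, and for pericyte and smooth muscle markers, at -0.105 against 0.125 and -0.01. Without that array, Maresin 1 differed from surgery by -0.00 for Cdh5, -0.04 for Pecam1, -0.05 for Podxl and -0.10 for Adgrl4. Without Maresin 1 replicate 1, these were -0.29 for Cdh5, -0.25 for Pecam1 and -0.21 for Podxl.

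Surgery arrays moved the same comparison. Without surgery replicate 1 Podxl differed by -0.24, and without surgery replicate 2 Podxl differed by -0.06 and Adgrl4 by -0.12. Without surgery replicate 3 Cdh5 differed by -0.09 and Tm4sf1 by 0.14.

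By class, the 4 surface genes had mean deviations of 0.22, -0.01 and 0.20 in Maresin 1 arrays, 0.04, 0.28 and 0.17 after surgery, and -0.30, -0.31 and -0.29 in control arrays. The control arrays lay below every operated array in that class. Their close means hide opposite orders, since Tm4sf1 was lowest and Adgrl4 highest of the controls in replicate 1. The adherens and lateral pair stood at 0.04 ± 0.25 with Maresin 1, 0.19 ± 0.08 after surgery and -0.23 ± 0.10 in control mice (SD, n = 3 each). The tight junction pair stood at 0.14 ± 0.15, 0.03 ± 0.11 and -0.18 ± 0.16 in the same groups. For the docking pair, control arrays ran from -0.31 to 0.18 and enclosed all Maresin 1 arrays.

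**Figure D4:**
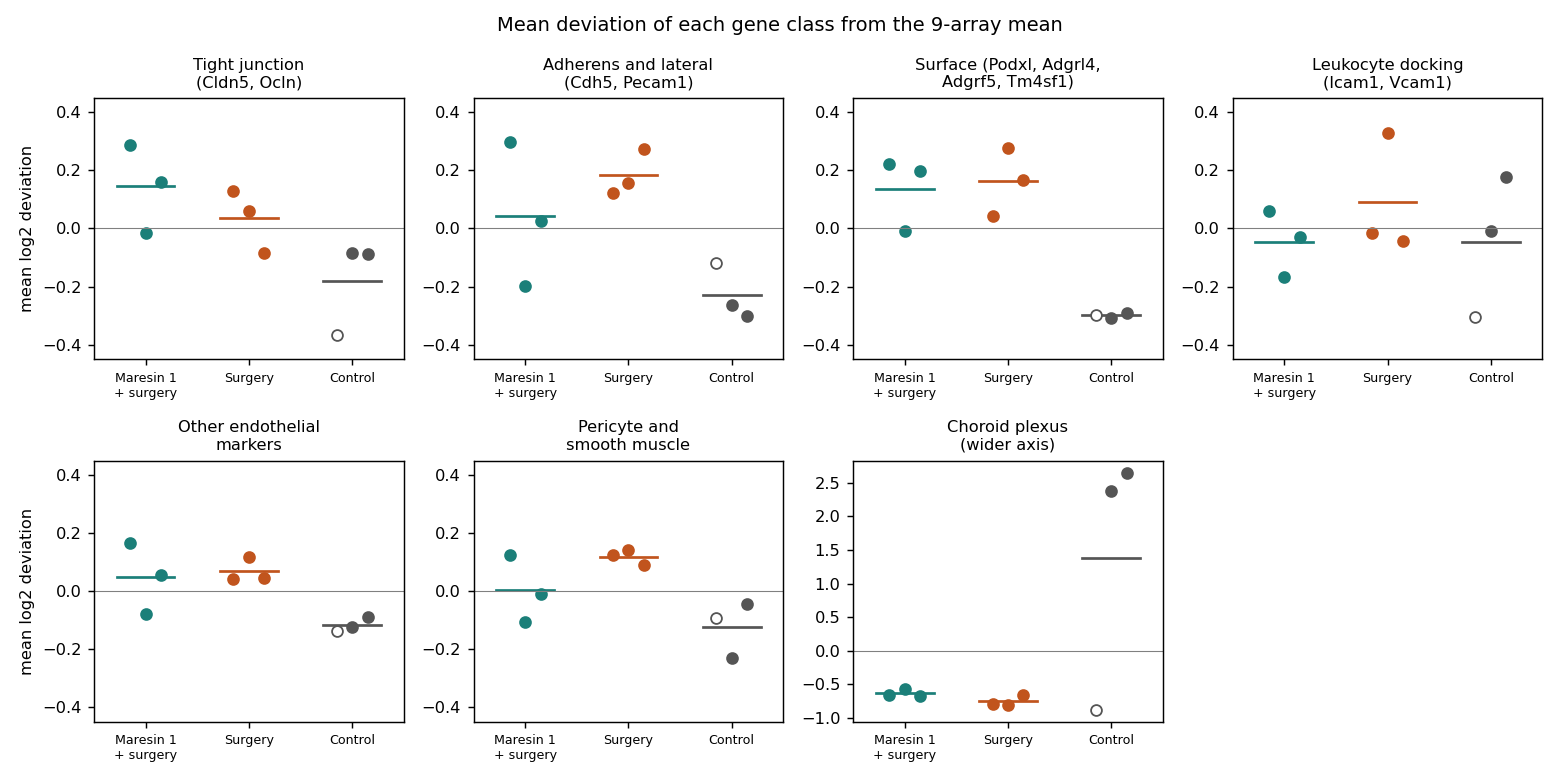
Mean log2 deviation from the 9-array mean (y axis) of each gene class in each array, with group means as bars and control replicate 1 as an open circle. The mean of the 4 surface genes lies lower in all controls than in all operated mice, that of the docking genes does not, and choroid plexus markers (wider axis) single out control replicates 2 and 3 at 2.37 and 2.65.

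The vascular setting was described with lists of other genes. These lists were also made with earlier results of these data known, and their comparisons with control use the same control arrays. Counts over these lists, here and below, are descriptions and no independent evidence. Of 17 other endothelial markers measured, 14 were higher after surgery than in control, 8 of them without overlap where 7.71% of all genes were, with a median of 0.22. With Maresin 1 against control, 15 of 17 were higher, with a median of 0.13. The glucose carrier gene Slc2a1 differed by 0.24 in both comparisons, the amino acid carrier gene Slc7a5 by 0.17 after surgery and 0.01 with Maresin 1, and Bsg, the basigin gene, by -0.06 and -0.05. Named after their values were seen, Flt1 differed by 0.49, Abcb1a by 0.38 and Slco1a4 by 0.33 after surgery, each without overlap. Lower after surgery were 3 of the 17, among them Slco1c1 at -0.14. Of 15 pericyte and smooth muscle markers, 14 were higher after surgery, with a median of 0.24. With the 6 operated mice together, 5 of the 17 and 5 of the 15 were higher than in control without overlap, where 2.96% of all genes were. None of these markers passed the threshold in any comparison. In whole hippocampus, more endothelial cells and more RNA per endothelial cell cannot be told apart.

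When the mean deviation of the 17 other endothelial markers was subtracted from each array, the surgery difference of the 10 genes averaged 0.15. On that scale Adgrl4 differed by 0.40, Podxl by 0.28, Pecam1 by 0.28, Adgrf5 by 0.23 and Vcam1 by -0.21. The Maresin 1 arrays then averaged 0.04 ± 0.03, the surgery arrays 0.06 ± 0.04 and the control arrays -0.09 ± 0.04 (SD, n = 3 each), and the controls still lay below all operated arrays. The 10 genes were picked with the surgery difference known, so nothing is read from a remainder above the other markers. The 17 include Slco1c1, at 8.96, 9.64 and 9.69 in the control arrays, and Ctla2a, whose mean of 5.01 lies under the olfactory receptor level.

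Among 13353 other genes above the olfactory receptor level, the 5 whose levels followed the mean profile of the 10 genes most closely over the 9 arrays were Acta2 (Pearson r = 0.97), Stk19 (0.95), Ifit3 (0.95), Pdgfb (0.94) and Ptprb (0.93). Acta2 is the smooth muscle actin, Pdgfb the growth factor by which endothelium recruits pericytes, Ptprb the vascular endothelial protein tyrosine phosphatase, and Ifit3 an interferon-induced gene. They were chosen for that likeness, and part of it is the group difference. With group means removed, r was 0.88, 0.93, 0.89, 0.86 and 0.77 in the same order.

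Of 19 other tight junction genes measured, 8 were higher and 11 lower after surgery than in control, with a median of -0.01, and 0 passed. The scaffold gene Tjp1 differed by 0.10 (SE 0.05) and Jam2, a junctional adhesion molecule, by 0.12. Cldn1, a claudin of epithelial and meningeal barriers and named after its values were seen, was -1.02 after surgery (SE 0.28) and -1.32 with Maresin 1 (SE 0.28, limma adjusted p = 0.0916), each against control. Its levels were 6.74, 6.62 and 6.37 in Maresin 1 mice, 6.79, 6.80 and 7.05 after surgery, and 7.05, 8.03 and 8.61 in control mice. The highest levels were those of control replicates 2 and 3, the arrays with high choroid plexus transcripts, while control replicate 1 lay close to surgery replicate 3. The part of choroid plexus tissue was not tested.

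Of 18 other adherens and lateral junction genes, 10 were higher after surgery and 6 showed no overlap, where 7.71% of all genes were higher without overlap, with a median of 0.05. The catenin gene Ctnnb1 differed by 0.08, Cdh2, the N-cadherin gene, by 0.03 and Cd99l2 by -0.00. Of 19 other surface genes, 13 were higher after surgery than in control. With Maresin 1, 15 were lower than with surgery alone, with a median of -0.12 against -0.02 for all genes. With Maresin 1 against control, 10 were higher and 9 lower, with a median of 0.05, and with the operated mice together 11 were higher and 8 lower, with a median of 0.02. Ly6e differed by -0.14 between Maresin 1 and surgery, S1pr1, a receptor for sphingosine 1-phosphate, by -0.06 and Cd34, a sialomucin, by -0.14. None of the 20 other adhesion G protein-coupled receptors passed, and 10 of them were higher after surgery and 10 lower. The neuronal receptor genes Adgrb2 and Adgrl1 differed by -0.05 and -0.04 from control after surgery, and Celsr2 by -0.04.

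Proteins that tie podocalyxin and the junctions to the cytoskeleton were counted too. Of 6 measured, 4 were higher after surgery than in control. Rdx, which encodes radixin, was at 9.67, 9.78 and 9.69 in Maresin 1 mice, 9.60, 9.58 and 9.61 after surgery, and 9.46, 9.49 and 9.52 in control mice. All 3 groups were apart, by 0.12 between Maresin 1 and surgery and by 0.11 between surgery and control (SE 0.05 each), and none of these differences passed (smallest limma adjusted p = 0.127, for Maresin 1 against control). Ezr, which encodes ezrin, differed by -0.22 after surgery, and Vim, of intermediate filaments, by 0.08.

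Of 10 other docking genes, 5 lay above the olfactory receptor level, and the selectin genes Sele and Selp, named after their values were seen, did not, with means of 5.54 and 5.51. The atypical chemokine receptor gene Ackr1, which presents chemokines on venules and is also carried by red cells, was at 9.13, 9.32 and 9.41 in Maresin 1 mice, 9.53, 9.52 and 9.45 after surgery, and 9.62, 9.65 and 9.42 in control mice. The Maresin 1 arrays lay below all others, by -0.21 against surgery (SE 0.08, limma adjusted p = 0.859) and -0.28 against control (SE 0.08, limma adjusted p = 0.200). Alcam, Cd47 and Icam2 differed by 0.06 to 0.07 between surgery and control, and Glycam1 by -0.11.

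The white blood cell side of the docking pairs was measured as 11 integrin, selectin ligand and related genes. Only 7 of the 11 lay above the olfactory receptor level on average. After surgery 11 of 11 were higher than in control, with a median of 0.11 against 0.02 for all genes. With Maresin 1, 10 of 11 were lower than with surgery alone, with a median of -0.07 against -0.02 for all genes. The comparisons share the surgery arrays. None passed in either. Itgam, the alpha chain of complement receptor 3, which microglia also express, differed by 0.29 (SE 0.09) after surgery without overlap. Itgb1 differed by 0.11 (SE 0.06), Selplg, the selectin ligand, by 0.02, Itga4, the alpha 4 partner of Vcam1, by 0.05 and Cd44, a hyaluronan receptor, by 0.19. Microglia and macrophage markers stood higher after surgery for 9 of 11 genes, with a median of 0.11, and their part in the integrin values was not tested.

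**Figure D5:**
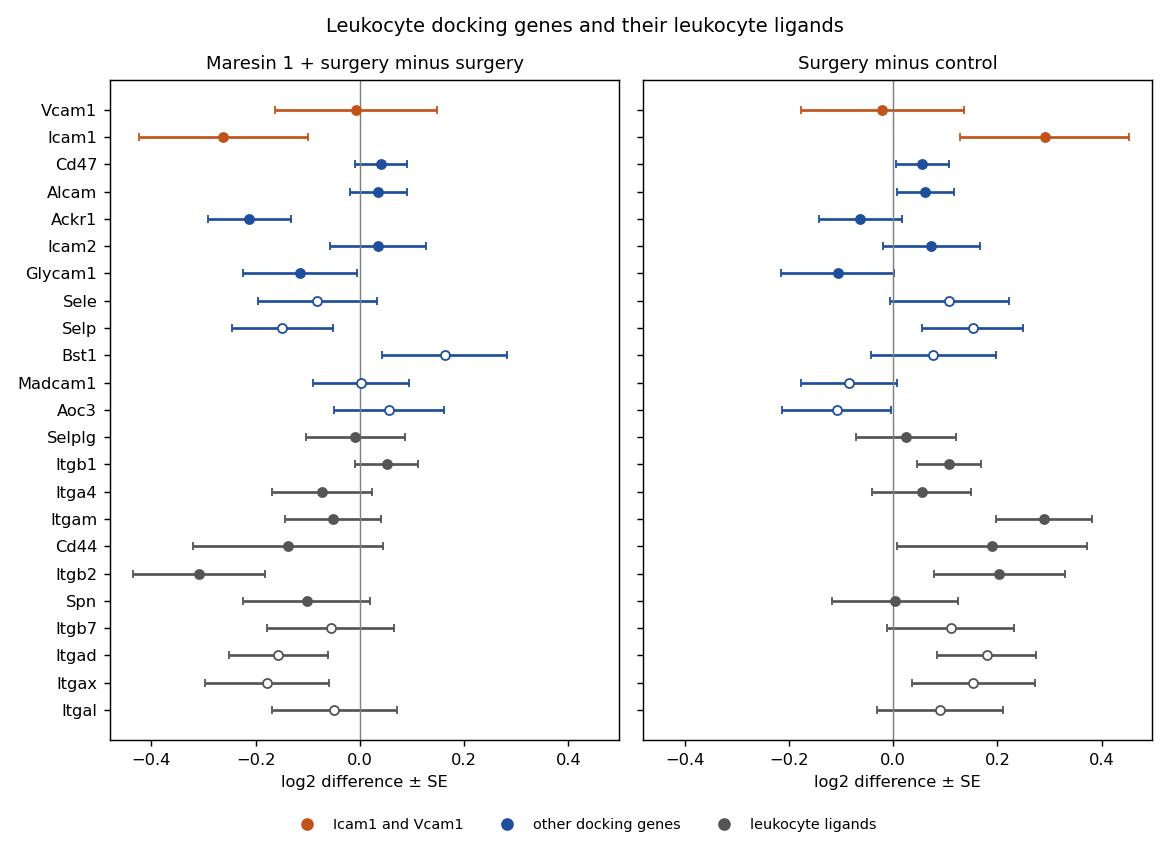
Log2 differences (x axis) with standard errors for Icam1 and Vcam1 (orange), 10 other docking genes (blue) and 11 leukocyte ligands (grey), for Maresin 1 minus surgery (left) and surgery minus control (right); open points have a mean under the olfactory receptor level. All 11 leukocyte ligands lie above 0 after surgery, and 10 of 11 lie under 0 in Maresin 1 minus surgery.

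Transcription factors known for endothelial identity were 16 in number, and 14 were higher after surgery than in control, 8 without overlap where 7.71% of all genes were, with a median of 0.21. With Maresin 1, 13 of 16 were lower than after surgery alone, with a median of -0.15 against -0.02 for all genes. Of the 17 other endothelial markers, 9 were higher and 8 lower with Maresin 1 than after surgery alone, with a median of 0.0009. None of the 16 transcription factor genes passed in any comparison. Hey1 differed from control by 0.13 after surgery, Ets2 by 0.16 and Foxo1 by -0.01. Among 15 genes listed for NF-kB and its response, 11 were higher after surgery, with a median of 0.10. Only 10 of the 15 lay above the olfactory receptor level on average. With Maresin 1, 12 were lower and 3 higher than after surgery alone, with a median of -0.07. Between surgery and control, Nfkbia, the inhibitor that NF-kB itself induces, differed by 0.10, Rela by -0.08 and Il1r1 by 0.24. Astrocyte markers had a median of 0.08, neuron markers 0.01, oligodendrocyte markers -0.03 and fibroblast markers 0.05 between surgery and control. The fibroblast markers were uneven among the controls, with mean deviations of -0.24 in replicate 1, 0.16 in replicate 2 and 0.28 in replicate 3.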

How the data were processed

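The authors deposited array intensities on a linear scale in 1 table of 35556 probe sets by 9 arrays. The submitters' processing notes name Affymetrix Expression Console. Its version, summarization and normalization are not given in the sources at hand. Median signals ran from 54.1 to 100 between arrays, so the arrays were quantile normalized and log2(intensity + 16) was computed from the deposited values. This choice, the 10 genes and the other gene lists were made with earlier results of these data known. Of the probe sets, 21218 name 1 gene, 1881 several and 12457 none in the platform table used. Symbols of 21185 were updated through gene identifiers. The probe set with the highest mean stood for each of 1386 genes with several, which left 18820 genes, with no filter on dim genes.

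Groups were compared with limma 3.58.1 in R 4.3.3, two-sided, in 1 model of the 3 groups without covariates, where the prior variance follows mean level. Benjamini-Hochberg adjustment ran over all genes, and a gene passed under 0.05. SE is the standard error of that model and SD the spread between arrays. Fold is 2 to the power of the log2 difference, which the added 16 makes smaller for dim genes. The model was tested on simulated data. The number of arrays, 3 per group, limits the precision. Of the lists, named genes are the 3 (docking lists 5) with the highest mean level, and the 5 genes most like the mean profile. The deposited table has no columns left unused. Alternatives covered the added constant, the scaling, the filter, the probe set, the prior variance, array weights, the replicate block and the arrays used.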

Additional observations from a re-analysis of the deposited data

How the results depend on the processing

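Of 820 differences of the 10 genes under alternative settings, 778 kept direction and side of the threshold, 13 newly passed and 29 changed sign, and the causes were not tested. No gene had passed in the first place, so there was no call to lose. The settings of the filter, the probe set, the prior variance and the replicate block leave the difference of each of the 10 genes unchanged. So does leaving out an array of a group not compared. Direction could not change in those settings, so the 778 do not measure how firm the directions are. Counts passing for surgery or operated mice against control describe the comparisons the genes were picked from and are no evidence. The counts of groups without overlap under other settings were added after seeing the data.

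With median scaling, which moved the median of all genes to 0.10 between surgery and control, 1 of the 10 genes passed in surgery against control and 2 in operated against control, where 0.197% and 0.324% of all genes passed. Calls over all genes then split into 12 higher and 25 lower for surgery against control (0 with quantile normalization), and 5 higher and 33 lower for Maresin 1 against control (13 and 3 with quantile normalization). Without normalization these splits were 1 and 41, and 2 and 41. Median scaling gave Vcam1 0.144 (surgery), 0.0148 (Maresin 1) and 0.0792 (operated) against control, and Cldn5 -0.0306 between Maresin 1 and surgery. No normalization gave Vcam1 0.00816 for surgery and Icam1 -0.00483 for Maresin 1 against control, and array weights gave Icam1 -0.00925. With control replicate 1 as the only control, 1 gene passed in Maresin 1 against control, and Vcam1 was 0.46 (surgery), 0.45 (Maresin 1) and 0.46 (operated). Genes higher without overlap numbered 0 (no normalization) and 10 (control replicate 1 only) for surgery against control. They numbered 2 and 7 for Maresin 1 against control, and 0 and 7 for operated against control, with 5 under median scaling. For Maresin 1 against surgery the count was 0 under both median scaling and no normalization. With control replicate 1 only, 36.6% (surgery), 29.5% (Maresin 1) and 21.1% (operated) of all genes were higher in this way. Shares of all genes under median scaling and no normalization are not given here, so nothing is read from those counts.

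Leaving out 1 array at a time, genes passing ranged from 0 to 3 in each comparison with control, with 3 without control replicate 1. Genes without overlap ranged from 5 to 8 for surgery and 4 to 7 for Maresin 1 against control, and from 1 to 2 for Maresin 1 against surgery. Leaving out an array can only keep or add genes without overlap, among all genes too. The shares of all genes in these settings are not given here, so nothing is read from these counts. Against control, differences ranged from -0.0381 to 0.247 for Ocln and -0.26 to 0.14 for Vcam1 after surgery, -0.0542 to 0.105 for Icam1 and -0.27 to 0.13 for Vcam1 with Maresin 1, and -0.26 to 0.14 for Vcam1 in operated mice. Between Maresin 1 and surgery they ranged from -0.0384 to 0.280 for Cldn5, -0.0813 to 0.102 for Adgrf5 and -0.0819 to 0.0454 for Vcam1.

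With replicate number as a block, 0 of the 10 genes passed in any comparison. With group means removed, same-numbered arrays of different groups correlated between -0.244 and 0.055, and differently numbered ones between -0.148 and 0.193. These values give no sign that the numbers pair the mice, but they cannot exclude it, and the titles do not say. Icam1 lay near background in most arrays, which limits what its values show.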
